A study of Mus musculus with 15 samples.

Results

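The 50 long noncoding genes with the most small RNA in heterozygous mouse testis were examined. They were chosen by ranking genes on the small RNA counts summed over the 3 heterozygous libraries and keeping the first 50 whose GENCODE biotype was long intergenic noncoding RNA, antisense, processed transcript, bidirectional promoter long noncoding RNA, sense intronic, sense overlapping or TEC (a locus still to be experimentally tested). Of 49585 annotated genes, 10438 had 1 of these 7 biotypes and 1918 of those had at least 1 heterozygous count. The sums of the 50 genes ran from 524844 down to 380, with a median of 13479.5. AU020206 (393) and 4933423L19Rik (380) were the last 2 inside the threshold. 4930442J19Rik (344) and Gm12462 (342) were the first 2 outside it.

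The samples were whole testes of B6D2F1 mice at postnatal day 28, with a chromosome 18 piRNA locus intact (Chr18+/+, wild type), heterozygous (Chr18+/-) or homozygous for the mutation (Chr18-/-). Strand-specific total RNA-seq covered 3 libraries of each genotype. Small RNA sequencing covered 3 heterozygous and 3 homozygous libraries and no wild type, so the heterozygotes are the only small RNA controls here and carry 1 mutated copy themselves. Small RNA libraries were made from RNA treated with periodate and β-elimination, a step that favours RNAs whose 3′ end is 2′-O-methylated. The labels do not say that replicates came from separate animals, so p-values measure only the spread between these libraries. RNA-seq totals ran from 21684791 to 41513634 counted fragments and small RNA totals from 939641 to 1861402 counted reads. All of these are bulk samples, in which fewer cells of a type and less RNA per cell cannot be told apart.

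PIWI-interacting RNAs (piRNAs) are small RNAs of the animal germline that are bound by PIWI proteins, and their 3′ ends carry a 2′-O-methyl group added by the methyltransferase HENMT1. In the adult mouse testis most of them are pachytene piRNAs, which appear when spermatocytes reach the pachytene stage of meiosis and persist in round spermatids. They are cut from long, single-stranded transcripts of RNA polymerase II, many of which were annotated as long noncoding genes of unknown role before their small RNAs were sequenced. The transcription factor A-MYB (gene Mybl1) drives many pachytene piRNA precursors, and several of these loci are transcribed in both directions from a shared promoter.

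Starts of the genes were compared with promoter sequences because the gene richest in small RNA and the gene ranked 3 start 43 bases apart on opposite strands of chromosome 7. RefSeq promoter windows (build GRCm38.p6, 250 bases before to 50 after a start) matched 31 of the 50 genes by symbol, and 27 had a window within 50 bases of the start given in the annotation of the counts. Each window was searched for GGCAGTT and its reverse complement AACTGCC, the letters of a MYB recognition sequence. The 7-letter motif stood in 6 of the 27 windows (22.2%), and in 1353 of all 32851 promoter windows (4.12%). Shorter forms were searched as well. GCAGTT and CAGTT lie within GGCAGTT, so every window with the longer motif also counts for them, and AACNG is a looser form that can overlap it. GCAGTT stood in 25.9% of the 27 windows and 13.7% of all, CAGTT in 59.3 and 44.8%, and AACNG in 92.6 and 80.3%, each on both strands. The 6 genes were Gm10619, 4933440M02Rik, 1700008K24Rik, 1700020N18Rik, 1700001L05Rik and Gm14144. A match describes letters only. It shows no binding, and a window without the motif shows nothing about the factor. In the 5 windows printed here, chosen after the matches were seen, 5′ to 3′ on the strand of the gene, capitals mark the motif. The first belongs to the divergent pair, the next 3 to other genes with the motif that have high or variable small RNA, and the last to the gene with the most small RNA per length, which has no match.
Gm10619, chr7:73816454-73816753, minus strand: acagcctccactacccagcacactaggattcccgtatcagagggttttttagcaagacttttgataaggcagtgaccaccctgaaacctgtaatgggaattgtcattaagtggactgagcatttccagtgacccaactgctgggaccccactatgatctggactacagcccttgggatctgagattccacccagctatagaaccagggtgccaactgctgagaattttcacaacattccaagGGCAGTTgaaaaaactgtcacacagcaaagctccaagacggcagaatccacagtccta
4933440M02Rik, chr7:125349737-125350036, minus strand: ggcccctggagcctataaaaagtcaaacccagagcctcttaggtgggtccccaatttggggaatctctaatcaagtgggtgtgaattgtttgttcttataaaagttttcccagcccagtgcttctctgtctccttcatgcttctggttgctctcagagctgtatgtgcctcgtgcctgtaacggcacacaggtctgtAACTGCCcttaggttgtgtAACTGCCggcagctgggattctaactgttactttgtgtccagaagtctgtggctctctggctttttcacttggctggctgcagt
1700008K24Rik, chr17:49113484-49113783, minus strand: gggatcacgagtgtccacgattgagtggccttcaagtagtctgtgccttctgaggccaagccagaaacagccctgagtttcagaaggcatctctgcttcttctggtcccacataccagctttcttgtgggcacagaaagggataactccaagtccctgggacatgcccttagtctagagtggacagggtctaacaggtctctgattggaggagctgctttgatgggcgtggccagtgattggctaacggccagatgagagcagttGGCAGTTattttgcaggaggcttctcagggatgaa
1700020N18Rik, chr1:91405980-91406279, minus strand: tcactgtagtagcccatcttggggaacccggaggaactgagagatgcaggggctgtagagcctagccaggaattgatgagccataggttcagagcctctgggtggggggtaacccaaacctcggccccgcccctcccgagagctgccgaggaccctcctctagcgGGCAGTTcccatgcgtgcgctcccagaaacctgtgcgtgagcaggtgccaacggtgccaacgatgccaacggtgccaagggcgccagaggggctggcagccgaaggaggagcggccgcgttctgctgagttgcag
1700042G15Rik, chr4:57364243-57364542, minus strand: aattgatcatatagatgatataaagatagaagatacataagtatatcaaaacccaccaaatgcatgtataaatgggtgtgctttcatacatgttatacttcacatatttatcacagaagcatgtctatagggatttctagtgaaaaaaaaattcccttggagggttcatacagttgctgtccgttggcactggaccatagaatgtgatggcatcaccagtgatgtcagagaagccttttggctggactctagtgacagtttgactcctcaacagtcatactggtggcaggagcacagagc
Counted from the annotated RefSeq start, the motif began at position -8 in Gm10619, within the stretch between the start of this gene and that of Gm21269 on the other strand. In 4933440M02Rik it began at -53 and again at -34, both times as the reverse complement. It began at -85 in 1700020N18Rik and at 16, downstream of the start, in 1700008K24Rik.

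The 50 genes held most of the small RNA that was assigned to any annotated gene. Their share of gene-assigned counts was 56.9, 61.0 and 60.8% in the heterozygous libraries (59.6% ± 2.32, SD, n = 3). It was 57.0, 58.5 and 57.4% in the homozygous libraries (57.6% ± 0.809, SD, n = 3). The groups overlapped. These shares describe what the ranking selected. Of all counts on the 7 biotypes, the 50 genes took 99.2% ± 0.044 in heterozygotes and 99.1% ± 0.036 in homozygotes. Protein-coding genes took 32.7% ± 1.01 and 33.0% ± 0.978 of the gene-assigned counts, and miRNA genes 3.30% ± 0.182 and 3.35% ± 0.125.

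The distribution was steep even among the 50. The first 5 genes together passed 50% of the counts of the 50, and the first 18 passed 90%. Gm21269 alone took 13.5% ± 1.48 of all gene-assigned counts in heterozygotes and 12.4% ± 0.725 in homozygotes. The first 10 genes took 43.0% ± 2.25 and 41.3% ± 0.823.

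Gm21269 (ENSMUSG00000108448) is a long intergenic noncoding gene at chr7:73816546-73838898 on the plus strand, in mm10 coordinates. Its level was 131925, 131507 and 141813 CPM (counts scaled to library size) in the heterozygous libraries and 113859, 136064 and 140399 CPM in the homozygous libraries. The 2 groups overlapped and the next highest value of any of the 50 genes in any library was 55054 CPM, in Gm10619. Its divergent partner Gm10619 (chr7:73781429-73816503, minus strand) stood at 53036, 45342 and 40047 CPM and at 48828, 53230 and 55054 CPM. Together with 4933440M02Rik (chr7:125284025-125349788), which had a summed heterozygous count of 176135, and 5 further genes they made chromosome 7 the richest chromosome, with 39.0% of the summed heterozygous counts of the 50. Gm45006 lies inside the gene body of Gm10619 on the same strand, so these 2 genes are not separate loci.

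Gm5878 (chr6:85111416-85126125), the gene ranked 2, was even across libraries. It had 49753, 49099 and 47121 CPM in heterozygotes and 43703, 50410 and 47267 CPM in homozygotes. Chromosome 6 held 8 of the 50 genes, as did chromosome 7, and the 50 were spread over 12 chromosomes. None lay on chromosome 18. On chromosome 6, 1700009C05Rik and 1700097M23Rik lie 5124 bases apart on the same strand and share a precursor, as do Gm10010 and 9330102E08Rik, which lie 4014 bases apart.

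Ranking by total count favours long exons, so the density per kb of exon gives another order. The densest gene was 1700042G15Rik (chr4:57360868-57364292, minus strand), with 172247 counts per kb of exon summed over the heterozygous libraries, from only 664 bases of exon. 1700020N18Rik followed with 94177, 1700009C05Rik with 77322 and 1700008K24Rik with 67537 counts per kb. Gm21269, with 12456 bases of exon the longest of the 50, had 42136 counts per kb. The median exon length of the 50 was 2292 bases, from 337 to 12456, against 1281 bases for all genes of the 7 biotypes. Single-exon genes made up 28.0% of the 50 and 31.3% of all.

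**Figure D1:**
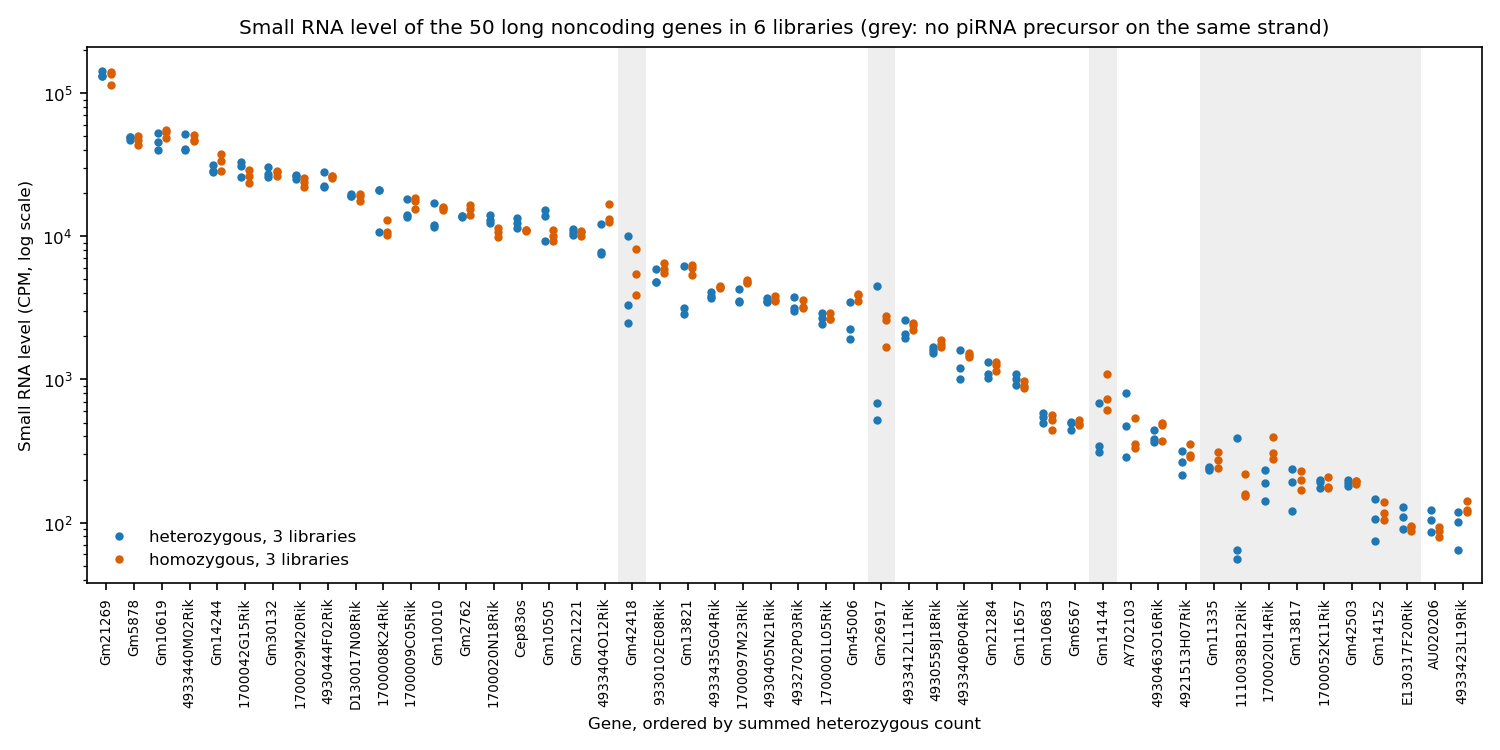
Small RNA level of each of the 50 genes (CPM on TMM-scaled library sizes, log scale) in the 3 heterozygous and 3 homozygous libraries, ordered by summed heterozygous count; each point is 1 library. Levels fall from 113859 to 141813 CPM for Gm21269 to near 100 CPM at the right, and the 11 genes on grey, which overlap no precursor, lie mostly among the lower ranks.

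Most of the 50 genes coincided with annotated piRNA precursors. The RNA-seq annotation of the authors holds 466 precursor rows, which the small RNA counts do not. Each row was taken as 1 span from its first to its last base, any introns included. In 39 of the 50 genes (78.0%) an exon overlapped a precursor by at least 1 base on the same strand, and in all 39 the overlap covered at least 50% of the exon length. The overlap held for 10 of the first 10 genes, 24 of the first 25 and 15 of the last 25. Among the next 50 genes by the same ranking it held for 2 (4.00%). Of the 1918 detected genes it held for 53 (2.76%), and of all 10438 genes for 68 (0.651%). None of the 50 overlapped a precursor on the opposite strand. How the authors defined the rows was not examined. If small RNA abundance was used to define them, part of this overlap was fixed beforehand, so the shares are a description.

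**Figure D2:**
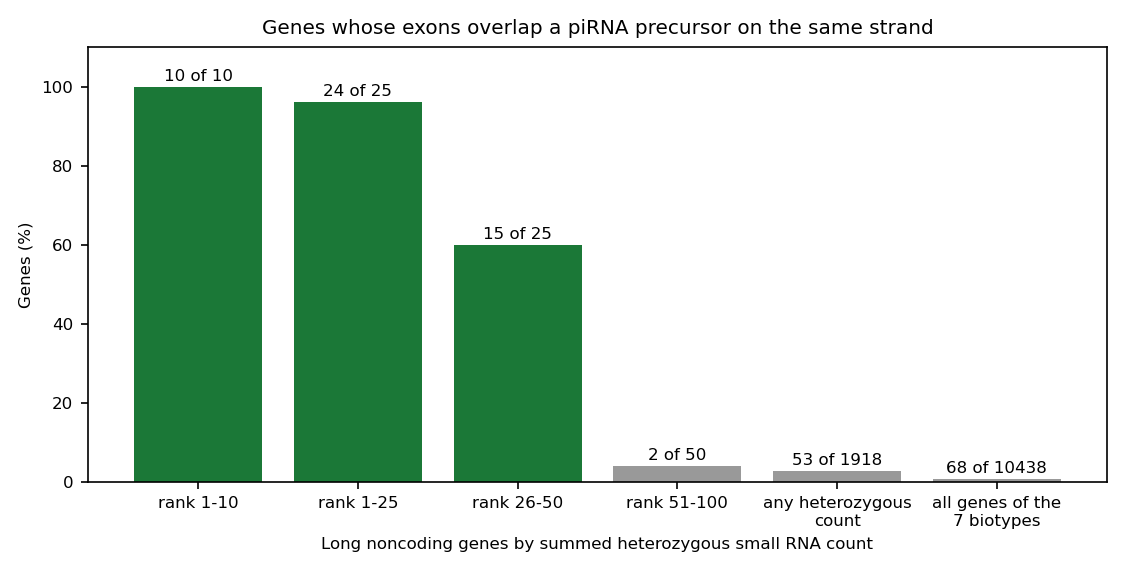
Share of long noncoding genes whose exons overlap an annotated piRNA precursor on the same strand by at least 1 base, by rank on summed heterozygous small RNA count; green bars are subsets of the 50 genes, grey bars the next 50, all 1918 genes with a count and all 10438 genes. The bars fall from 100% at ranks 1 to 10 to 60.0% at ranks 26 to 50 and 4.00% at ranks 51 to 100.

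The 39 genes on precursors carried nearly all of the counts. They took 98.5% ± 1.05 of the counts of the 50 in heterozygotes and 98.3% ± 0.412 in homozygotes. Their median density was 11473 counts per kb of exon, summed over the heterozygous libraries, against 438 in the 11 genes without a precursor. The heterozygous counts also chose and ranked the genes, so these values describe what the ranking selected. Gm14244, 4930444F02Rik, 1700009C05Rik and 1700020N18Rik lay on precursors over 100% of their exon length. Gm21269 did so over 99.6%, Gm10619 over 99.4%, Gm5878 over 99.3% and D130017N08Rik over 99.5%. The lowest shares among the first 15 were 79.9% in Gm2762 and 83.0% in 4933440M02Rik.

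The 11 genes without a precursor were of several kinds. Gm42418 and Gm26917 lie 616 bases apart on chromosome 17, and RefSeq lists Gm42418 as a synonym of Rn18s-rs5, a sequence related to 18S ribosomal RNA. Gm42418 was the only 1 of the 11 within the first 25 by rank, with a summed heterozygous count of 23283. The host gene 1110038B12Rik contains the small nucleolar RNA gene Snord52, whose product guides methylation of ribosomal RNA. It and Gm21269, which contains the microRNA gene Mir7234, were the 2 of the 50 genes with an exon over a short RNA gene on the same strand. Gm42503 lies 1464 bases from D130017N08Rik on the same strand. The others were Gm14144, Gm11335, 1700020I14Rik, Gm13817, 1700052K11Rik, Gm14152 and E130317F20Rik.

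Divergent starts were not limited to the chromosome 7 pair. A gene of the opposite strand started within 1000 bases upstream for 6 of the 50 (12%), against 8.27% of all genes of the 7 biotypes. Besides Gm21269 and Gm10619 these were Cep83os with Cep83 (177 bases between the starts), 4930558J18Rik with 1700066M21Rik (76), 4933406P04Rik with Bclaf1 (175) and Gm11335 with the histone gene Hist1h4h (107). In these 4 the partner was protein-coding, and its own summed heterozygous small RNA count was 13, 44, 158 and 5. In the pair of Gm21269 and Gm10619 both partners were rich in small RNA, with 524844 and 182898. Only annotated starts of genes were compared. 4933435G04Rik and Gm6567, on opposite strands of chromosome 7, start 22383 bases apart and were not counted. Their precursor rows also point away from each other, one on the plus strand from base 73105311 and one on the minus strand from base 73105273. The summed heterozygous counts of these 2 genes were 15117 and 1878.

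Small RNA of the 50 genes was then set side by side in homozygotes and heterozygotes. Because heterozygous counts chose the genes, the values are a description. Among 3581 genes fitted in edgeR, 0 of the 50 passed an adjusted p of 0.05, where 0.0279% of all genes fitted did. At an unadjusted p under 0.05 there were 7 of the 50. The share of all genes at that level was not computed, so nothing is read from this count. DESeq2 also called 0. In simulated small RNA data 17% of 2-fold and 79% of 4-fold changes were found, over genes of all levels. The median log2 difference, homozygous minus heterozygous, was 0.11 over the 50 and -0.01 over all genes fitted. It was under 0.5 in size for 44 of the 50, and ranged from -0.63 to 0.87. The groups did not overlap for 9 of the 50, 7 higher and 2 lower in homozygotes, where they did not overlap for 15.9% of all genes fitted (8.41% higher, 7.51% lower).

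The heterozygous libraries differed among themselves, and this sets how the comparison can be read. Heterozygous library 1 stood apart from libraries 2 and 3. Its counts differed from theirs with chi-square values, divided by the degrees of freedom, of 25.7 and 27.2, whereas libraries 2 and 3 gave 2.11 and pairs of homozygous libraries 3.34 to 4.39. Counts of small nucleolar RNA genes were 5.26% of library 1 and 0.694 and 0.840% of libraries 2 and 3, with 2.74 to 3.47% in homozygotes. Of the 50 genes, 7 were more than 1.5 times higher in library 1 than in both other heterozygous libraries and 2 were lower by that fold. The higher ones were 4933404O12Rik, Gm42418, Gm13821, Gm45006, Gm26917, Gm14144 and 1110038B12Rik, and the lower ones 1700008K24Rik and AY702103. Without library 1, edgeR called 20 of the 50 genes, 16 higher and 4 lower in homozygotes, among 617 calls in all. The share over all genes fitted in that setting is not given, so the 20 are not read against it. The number of the 50 genes called depended on whether library 1 was used. Leaving out libraries 2 and 3, a setting added after the data were seen, keeps 1 heterozygous library, which is then assumed to vary like the homozygous ones. The values of that setting are used only for the size and sign of differences. The small RNA counts cover no gene of the mutated locus, so the small RNA genotypes were not checked from it.

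1700008K24Rik, a long intergenic noncoding gene on a chromosome 17 precursor whose promoter window is printed, had the most negative difference. It had 10632, 21005 and 20947 CPM in heterozygotes and 10277, 10784 and 13022 CPM in homozygotes. Heterozygous library 1 lay among the homozygous libraries and the other 2 lay far above them. The log2 difference was -0.63 ± 0.25 (SE), -0.89 without library 1 and 0.10 without libraries 2 and 3, so its direction turned with the libraries kept. Gm10505, also on chromosome 17, had -0.34, -0.52 and 0.13 in the same 3 fits.

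4933404O12Rik, on a chromosome 5 precursor, was among the genes whose groups did not overlap. It had 12267, 7526 and 7803 CPM in heterozygotes and 12671, 16921 and 13275 CPM in homozygotes, and even the highest heterozygous library was below the lowest homozygous one. The log2 difference was 0.64 ± 0.21 (SE), with an adjusted p of 0.557. It kept its sign without library 1 (0.90) and without libraries 2 and 3 (0.23). 1700020I14Rik, a gene without a precursor, had 231, 141 and 190 CPM in heterozygotes and 305, 280 and 394 CPM in homozygotes. Its groups did not overlap either, with a log2 difference of 0.80 ± 0.23, which was 0.97 and 0.50 under the same omissions.

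The largest positive difference belonged to Gm14144, a gene without a precursor but with the motif in its promoter window. It had 682, 343 and 313 CPM in heterozygotes and 615, 735 and 1093 CPM in homozygotes, and the groups overlapped. Its log2 difference was 0.87 ± 0.34. After 1700020I14Rik and 4933404O12Rik, the next positive differences were those of Gm45006 and Gm13821, both on precursors, with 0.58 and 0.54. Of Gm14144, Gm45006 and Gm13821, Gm13821 turned to -0.06 without heterozygous libraries 2 and 3. Gm14144 and Gm45006 kept their sign.

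The 3 genes with the largest standard errors were Gm26917, 1110038B12Rik and Gm42418. Gm26917 had 4470, 521 and 684 CPM in heterozygotes and 1696, 2753 and 2605 CPM in homozygotes. 1110038B12Rik had 392, 55.8 and 64.8 CPM and 158, 154 and 217 CPM. Gm42418 had 9964, 2493 and 3308 CPM and 3901, 5428 and 8186 CPM. In all 3 the homozygous values lay between heterozygous library 1 and the other heterozygous libraries, as did the share of small nucleolar RNA genes, whose part in these values was not tested.

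Other genes, with or without a precursor, were steadier. The median coefficient of variation over all 50 genes was 13.1% in heterozygotes and 7.70% in homozygotes. Gm42503, without a precursor, had 189, 198 and 180 CPM in heterozygotes and 195, 186 and 196 CPM in homozygotes. D130017N08Rik had 19741, 19219 and 19194 CPM in heterozygotes and 17590, 19580 and 19248 CPM in homozygotes. 1700029M20Rik had 25074, 26922 and 26220 CPM and 22201, 25364 and 24103 CPM. For D130017N08Rik and 1700029M20Rik the homozygous and heterozygous ranges overlapped. Their log2 differences were -0.04 ± 0.11 and -0.13 ± 0.11 (SE), neither past the threshold. Cep83os had 13486, 12396 and 11362 CPM in heterozygotes and 11030, 10889 and 11019 CPM in homozygotes, without overlap.

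**Figure D3:**
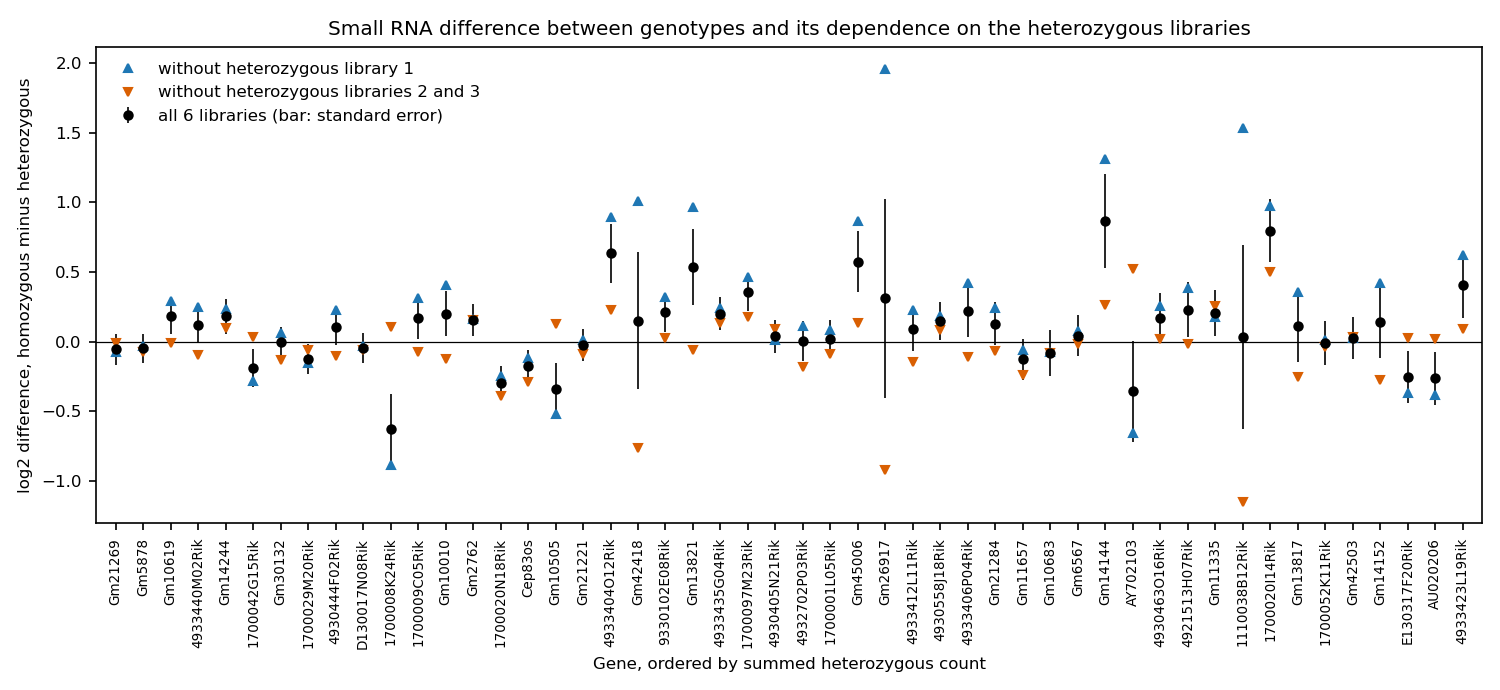
log2 difference in small RNA level, homozygous minus heterozygous, for the 50 genes ordered by summed heterozygous count; black points are the fit to all 6 libraries with its standard error, blue triangles omit heterozygous library 1 and orange triangles omit heterozygous libraries 2 and 3. The omissions pull Gm26917 to 1.96 and -0.92 and 1110038B12Rik to 1.53 and -1.15, while Gm5878 stays at -0.03 and -0.07.

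Long RNA of the same genes was measured by RNA-seq in other libraries, and no RNA-seq value entered the ranking. The labels do not say whether the same animals gave RNA for both assays. The most abundant precursor row of the mutated locus served as a check of the genotypes, with 273 ± 20.7 CPM in wild-type, 163 ± 37.1 CPM in heterozygous and 0.156 ± 0.049 CPM in homozygous libraries (SD, n = 3 each).

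How fragments were counted decided which of the 50 genes had an RNA-seq value of their own. Fragments lying in more than 1 same-strand feature were left out of the counts, and a gene that lies inside a precursor shares its bases with it. No base of 20 of the 50 gene bodies was free of another feature, and 25 genes had 0 fragments in all 9 libraries. For 37 of the 39 genes on precursors under 5% of the gene body could be counted. The 11 genes without a precursor had at least 94.2% of their body free. After a filter on low counts 15 genes were tested, all 11 without a precursor and 4 with one. Of the 35 genes not tested, Gm21284 had 7901 countable bases (39.3% of its body) and 0.035 to 0.385 CPM. All others had at most 2.44% of the body free, and for them a value near 0 is no measure of transcription. Gm21269, the richest in small RNA, had 0 to 0.269 CPM.

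The 4 tested genes on precursors were represented by the part outside the precursor. This was 140 bases (4.0% of the body) for 1700029M20Rik, 390 bases for Cep83os, 1102 bases for Gm2762 and 32883 of 65764 bases for 4933440M02Rik. Their RNA-seq values describe that part only.

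Between homozygotes and heterozygotes 0 of the 15 tested genes passed the threshold in edgeR, where 0.0289% of the 20782 features tested did. DESeq2 also called 0, and 1 gene (Gm2762) had an unadjusted p under 0.05. The median log2 difference over the 15 was -0.05, against 0.01 over all features, and the single differences ran from -0.19 to 0.45. In simulated data for this comparison, 69.0% of 2-fold changes and 97.0% of 4-fold changes were found. The simulation used the heterozygous and homozygous libraries alone and random genes of all levels, so these rates are not specific to the 15.

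In homozygotes compared with wild type, 5 of the 15 genes passed, 1 higher and 4 lower, where 20.8% of all features passed (9.68% higher, 11.1% lower). In heterozygotes compared with wild type, 8 passed, 2 higher and 6 lower, where 23.9% of all features passed (11.1% higher, 12.9% lower). The 2 comparisons share the wild-type libraries. The median log2 differences were -0.11 and -0.19 over the 15, against -0.01 and -0.002 over all features. Wild-type library 1 differed from libraries 2 and 3 with chi-square values over degrees of freedom of 47.6 and 50.7, against 3.12 between those. Without it, 2 of the 15 passed in each comparison, while calls over all features fell from 4319 to 2915 in homozygotes and from 4977 to 2901 in heterozygotes. Without homozygous library 2 or 3, the homozygous count was 2 and 1, with 1899 and 1805 calls over all features. Without heterozygous library 2 or 3, the heterozygous count was 5 and 3, with 4720 and 2432 calls over all features.

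Other features moved with the wild-type contrasts. Of 9 tested Leydig cell markers 7 were lower than wild type in both genotypes, with summed levels of 1228 to 1357 CPM in wild-type, 558 to 723 CPM in heterozygous and 515 to 691 CPM in homozygous libraries. Of 12 elongating spermatid markers 5 were lower in homozygotes and 6 in heterozygotes, with sums of 16598 to 17278, 9658 to 12578 and 5858 to 14043 CPM in wild type, homozygotes and heterozygotes. Of 10 pachytene spermatocyte markers 2 and 3 were lower, and they summed to 6848 to 7528, 6873 to 7242 and 6572 to 6973 CPM in the same order. Of the other lists, 1 of 10 round spermatid markers was higher in both genotypes, 1 of 8 spermatogonial markers was higher and 1 lower, and 1 and 4 of 10 Sertoli cell markers were higher in homozygotes and heterozygotes. Of 6 peritubular myoid markers 2 and 1 were lower, of 6 macrophage markers 1 was higher in both, and of 5 endothelial markers 0 passed. Of 2 tested epididymis markers 1 was higher in both, with all 5 summing to at most 4.8 CPM in any library. Between homozygotes and heterozygotes 0 markers passed in any list. The part of any of these in the differences of the 50 genes was not tested.

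Gm26917, the neighbour of Gm42418, had the most fragments of the 15 on the kit strand, the strand that was counted. It had 4434, 2795 and 2746 CPM in the wild-type libraries, 2298, 1806 and 1216 CPM in the heterozygous ones and 1956, 1632 and 1513 CPM in the homozygous ones. No library of either mutant genotype reached the lowest wild-type library, and wild-type library 1 was the highest of all. It was lower in homozygotes by a log2 difference of -0.97 ± 0.23 (SE, adjusted p = 0.0137) and in heterozygotes by -0.91 ± 0.23 (adjusted p = 0.0165). The first call was lost without homozygous library 2 (adjusted p = 0.0591) or 3 (0.0609). The second was lost without wild-type library 1 (log2 difference -0.64, adjusted p = 0.0665) or heterozygous library 3 (0.0557).

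Gm42418 had 313, 151 and 147 CPM in the wild-type libraries, 125, 82.5 and 35.7 CPM in the heterozygous ones and 102, 51.2 and 72.0 CPM in the homozygous ones. On this strand, the one counted, the wild-type libraries lay above all others. The opposite strand of Gm42418 held more fragments, 9.23 to 45.6 times the kit-strand count in the 9 libraries. Scaled to the kit-strand library total without TMM, it had 3757, 1404 and 1823 CPM in the wild-type libraries, 2932, 1507 and 815 CPM in the heterozygous ones and 1743, 898 and 3304 CPM in the homozygous ones. There the groups overlapped, so the lower level describes 1 strand and the lesser part of the fragments over this gene. In each of the other 14 tested genes the opposite strand held fewer fragments than the kit strand. The log2 differences were -1.44 ± 0.41 in homozygotes (adjusted p = 0.0274) and -1.33 ± 0.41 in heterozygotes (adjusted p = 0.0335). Without wild-type library 1 they were -0.99 and -0.87, with adjusted p of 0.118 and 0.161. Both calls were also lost without library 2 or library 3 of the mutant genotype (adjusted p of 0.107 and 0.0876 in homozygotes, 0.0721 and 0.0935 in heterozygotes). The heterozygous call was further lost with DESeq2 (0.0509), with no scaling (0.0551) and with only the 2 groups compared in the fit (0.0506).

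1700052K11Rik, an antisense gene of chromosome 11, was lower in both genotypes. It had 47.5, 36.8 and 35.3 CPM in the wild-type libraries, 29.2, 30.0 and 26.2 CPM in the heterozygous ones and 32.0, 28.3 and 29.8 CPM in the homozygous ones. The groups did not overlap with wild type. The log2 differences were -0.41 ± 0.12 (adjusted p = 0.0299) in homozygotes and -0.49 ± 0.12 (adjusted p = 0.0136) in heterozygotes. The first was lost without wild-type library 1 (-0.26, adjusted p = 0.0947) or homozygous library 2 (0.108) or 3 (0.0922), the second without heterozygous library 3 (0.0559).

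Gm14152, a chromosome 2 gene without a precursor, was higher in both genotypes. It had 88.5, 107 and 97.6 CPM in the wild-type libraries, 139, 118 and 139 CPM in the heterozygous ones and 126, 121 and 135 CPM in the homozygous ones. All 6 mutant libraries lay above the 3 wild-type libraries. The log2 differences were 0.38 ± 0.10 (adjusted p = 0.0205) and 0.43 ± 0.10 (adjusted p = 0.0115) in homozygotes and heterozygotes. The heterozygous call was kept in each of 15 alternative settings. The homozygous one was lost without wild-type library 1 (adjusted p = 0.0542) or 3 (0.0595) or homozygous library 3 (0.0899).

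1700020I14Rik had 53.3, 62.0 and 67.5 CPM in the wild-type libraries, 79.0, 72.0 and 80.2 CPM in the heterozygous ones and 65.3, 81.5 and 82.0 CPM in the homozygous ones. It passed in heterozygotes only, by 0.34 ± 0.11 (adjusted p = 0.0487), and its homozygous difference of 0.32 had an adjusted p of 0.0628. The difference of homozygotes from heterozygotes, -0.02 ± 0.11, did not pass. The heterozygous call was lost on omitting any library but wild-type library 3 and homozygous library 1, with adjusted p of 0.0506 to 0.143. It was also lost with only the 2 groups compared in the fit.

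Among the genes on precursors, the countable 140 bases of 1700029M20Rik had 2.50, 1.96 and 1.68 CPM in the wild-type libraries, 1.26, 0.735 and 0.756 CPM in the heterozygous ones and 1.03, 0.804 and 0.808 CPM in the homozygous ones. Wild-type values lay above all mutant ones. The log2 differences were -1.22 ± 0.28 (adjusted p = 0.0110) in homozygotes, kept in all 15 alternatives, and -1.14 ± 0.27 (adjusted p = 0.0121) in heterozygotes, lost without wild-type library 1 (-0.96, adjusted p = 0.0528). Small RNA of this gene, for which there is no wild type here, had a log2 difference of -0.13 ± 0.11 between homozygotes and heterozygotes.

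Gm2762 had 7.95, 5.54 and 4.82 CPM in the wild-type libraries, 3.71, 3.14 and 4.19 CPM in the heterozygous ones and 5.14, 4.83 and 5.16 CPM in the homozygous ones. Only its heterozygous difference passed, at -0.74 ± 0.19 (adjusted p = 0.0175). The call was lost without wild-type library 1 (-0.49, adjusted p = 0.0687) or heterozygous library 2 (0.0506). Cep83os passed in heterozygotes at -0.59 ± 0.20 (adjusted p = 0.0480), and this was lost in 13 of 15 alternatives, among them the omission of any 1 of the 9 libraries, with adjusted p of 0.0546 to 0.147. The other 7 tested genes, 4933440M02Rik, Gm14144, Gm11335, 1110038B12Rik, Gm13817, Gm42503 and E130317F20Rik, passed in no comparison.

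**Figure D4:**
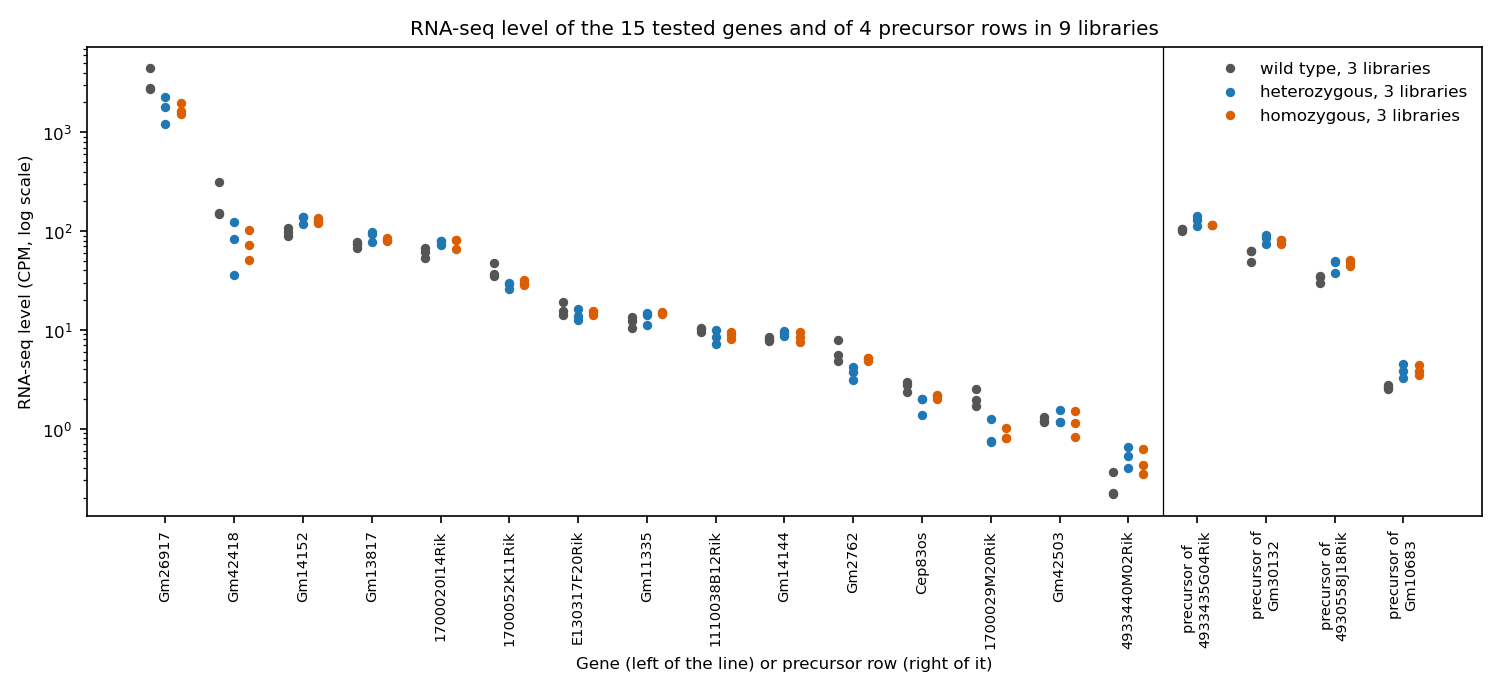
RNA-seq level (CPM, log scale) of the 15 tested genes, ordered by wild-type mean, and of the 4 precursor rows that passed a test, in 3 wild-type, 3 heterozygous and 3 homozygous libraries; each point is 1 library. On the kit strand, wild-type points of Gm26917 (2746 to 4434 CPM) and Gm42418 (147 to 313 CPM) lie above all mutant points, and those of the precursor row of Gm30132 (48.7 to 62.4 CPM) lie below them.

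For genes whose own fragments could not be counted, the precursor row gives a partial view of the long transcript. The countable bases of a row lie outside the gene on it, so its level is not that of the gene's own sequence. Members of the 39 overlapped 90 precursor rows, many of them isoforms of 1 locus that share bases with each other. Fragments were present in 19 rows and 18 were tested. Between homozygotes and heterozygotes 0 of the 18 passed, and 0 had an unadjusted p under 0.05. DESeq2 also called 0. Compared with wild type, 3 rows were higher in homozygotes and 4 in heterozygotes, where 9.68 and 11.1% of all features were higher. None was lower. The median log2 differences over the 18 rows were 0.06 and 0.03. This reading of precursor rows was added after the data were seen.

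The row 8_qC5_2209_1, on which Gm30132 lies, had 48.7, 62.1 and 62.4 CPM in the wild-type libraries, 91.3, 73.8 and 84.4 CPM in the heterozygous ones and 81.7, 73.4 and 81.0 CPM in the homozygous ones. All mutant libraries lay above wild type, with log2 differences of 0.45 ± 0.12 (adjusted p = 0.0192) in homozygotes and 0.53 ± 0.12 (adjusted p = 0.00907) in heterozygotes. The heterozygous call was kept in all 15 alternatives. The homozygous one was lost without homozygous library 1 (adjusted p = 0.0507) or 3 (0.0732). These values come from 5596 of the 17437 bases of the row, all outside Gm30132. Small RNA of Gm30132 had a log2 difference between homozygotes and heterozygotes of -0.005 ± 0.11, and has no wild-type measurement here.

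The row 1_qC1_3_637_1, with 4930558J18Rik, had 29.5, 35.2 and 34.0 CPM in the wild-type libraries, 48.9, 38.0 and 49.8 CPM in the heterozygous ones and 44.4, 48.3 and 50.9 CPM in the homozygous ones. This row had 10247 of 28546 bases countable, outside 4930558J18Rik. It was higher by 0.54 ± 0.12 (adjusted p = 0.00922) and 0.47 ± 0.12 (adjusted p = 0.0151), without overlap with wild type. The homozygous call was kept in all 15 alternatives and the heterozygous one was lost without heterozygous library 3 (adjusted p = 0.0595). The row 8_qA4_332_2, with Gm10683, had 1757 of 6022 bases countable. It was higher by 0.56 in homozygotes (adjusted p = 0.0395) and 0.55 in heterozygotes (adjusted p = 0.0356). Each of these calls was lost on omitting any wild-type library, with adjusted p of 0.0694 to 0.105. The homozygous call was also lost with no filter on low counts (0.0558) and without homozygous library 2 (0.140) or 3 (0.0951), and the heterozygous one without heterozygous library 1 (0.0673) or 3 (0.123). Fitting only the 2 groups compared lost the heterozygous call as well. The row 7_qD1_19431_2, with 4933435G04Rik and 20221 of 41469 bases countable, passed in heterozygotes at 0.31 (adjusted p = 0.0322). That call was lost on omitting any wild-type library or heterozygous library 1 or 3, with adjusted p of 0.0702 to 0.101. Fitting only the 2 groups compared also lost it.

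Small and long RNA levels were set side by side per length, small RNA as CPM per kb of exon and long RNA as CPM per kb of countable sequence, introns included, both as heterozygous means. The 2 scales have no common unit, so only the order of genes within each can be read. On precursor rows the countable bases lie outside the gene, so the 2 values there come from different sequence. 1700020N18Rik was high on both, with 23913 CPM per kb of small RNA and 57.2 CPM per kb of long RNA on its precursor row 1_qD_2017_2. 1700009C05Rik had nearly as much small RNA, 19344 CPM per kb, but 1.00 CPM per kb of long RNA on the row it shares with 1700097M23Rik. That long RNA value covers 1039 of the 18023 bases of the row, outside both genes. At the other end 4921513H07Rik had 119 CPM per kb of small RNA on a row with 19.1 CPM per kb of long RNA, the second highest of the 18 rows. The order of the countable parts of the rows by long RNA was not the order of the genes by small RNA.

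The 11 genes without a precursor had a median of 94.3 CPM per kb of small RNA and 4.07 CPM per kb of long RNA. For the 18 precursor rows the medians were 1034 and 2.13. On the kit strand Gm26917 was the highest of all in long RNA, at 533 CPM per kb, followed among the 11 by Gm42418 at 44.2, Gm13817 at 7.90, 1700052K11Rik at 7.68, 1700020I14Rik at 5.84 and 1110038B12Rik at 4.07. Because countable sequence includes introns, this order depends on their length. Gm14152, with 132 CPM in heterozygotes, has 1243 bases of exon but 51753 countable bases and so stood at 2.55 CPM per kb. 1700020I14Rik had the least small RNA of the 11, at 22.6 CPM per kb.

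**Figure D5:**
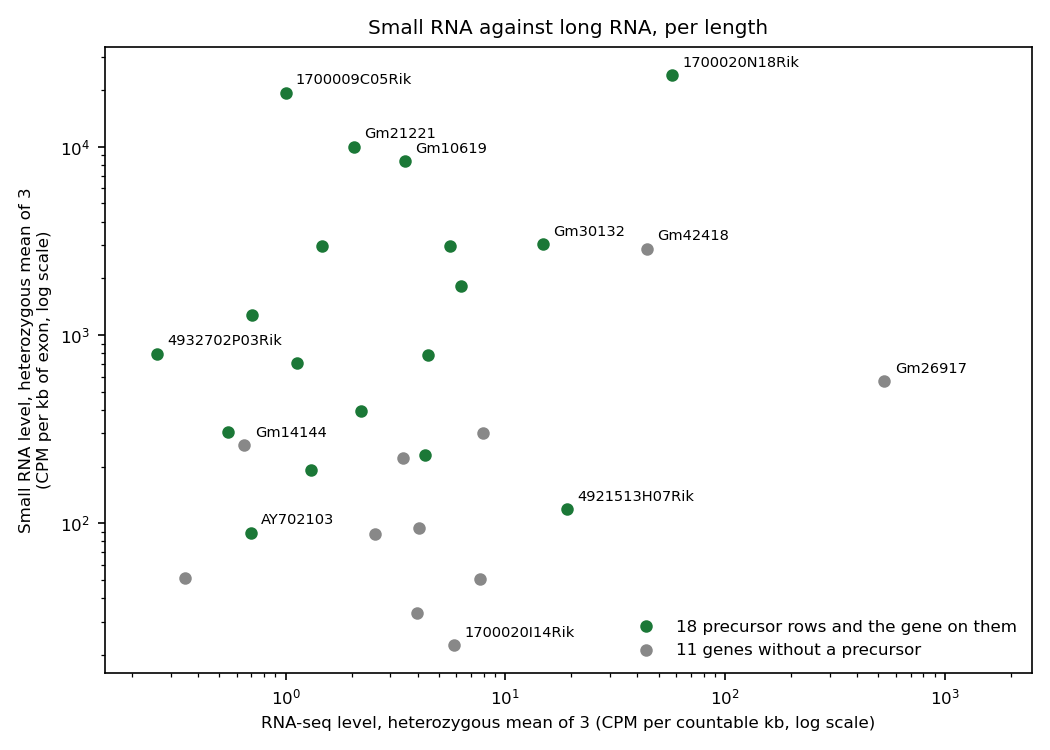
Small RNA level (CPM per kb of exon) against RNA-seq level on the kit strand (CPM per countable kb), both heterozygous means of 3 libraries on log scales, for 18 precursor rows plotted with the small RNA of a gene lying on them (green; where 2 genes share a row, the one with more small RNA) and for the 11 genes without a precursor (grey). The countable bases of a precursor row lie outside the gene plotted with it. 1700020N18Rik is high on both axes, 1700009C05Rik on the vertical axis only, and Gm26917 lies far to the right at 533 CPM per countable kb.

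Genes that make or control piRNAs were read for context, from a list of 28 that were all tested. Among them are PIWI proteins, Tudor domain proteins and helicases that process precursors. Between homozygotes and heterozygotes 0 of the 28 passed in edgeR, 1 had an unadjusted p under 0.05 and DESeq2 called 0. Set against wild type, homozygotes had 7 of the 28 higher and 1 lower, where 9.68% of all features were higher and 11.1% lower. Heterozygotes had 4 higher and 1 lower, where 11.1% of all features were higher and 12.9% lower. Mybl1, which encodes A-MYB, was higher in homozygotes by 0.33 (adjusted p = 0.0399), with an adjusted p of 0.0607 in heterozygotes. Asz1, a mitochondrial surface protein of the pathway, was higher by 0.38 (adjusted p = 0.0352) and 0.53 (adjusted p = 0.00898). Ybx2, an RNA-binding protein of spermatids, was lower by -0.65 (adjusted p = 0.00632) and -0.72 (adjusted p = 0.00419). Piwil1 and Piwil2, which encode the PIWI proteins of pachytene piRNAs, had log2 differences of -0.14 and -0.06 in homozygotes that did not pass. Leaving out 1 library changed the count of the 28 that passed to between 1 and 9 in homozygotes and between 2 and 6 in heterozygotes. In homozygotes 0 were higher and 1 lower once library 2 of their own group was dropped. Dropping their library 3 gave the same counts, as did dropping library 2 or 3 of the wild type. The homozygous calls of Mybl1 and Asz1 were thus lost in each of those fits. Dropping library 1 left 4 higher for the wild type and 2 for the homozygotes, and dropping any heterozygous library left 7.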

How the data were processed

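Total RNA-seq and small RNA counts of mouse testis were analysed. Per the file headers, the authors counted reads with featureCounts 1.6.2 (RNA-seq) and 1.6.1 (small RNA), and the deposited values are raw counts per gene. The coordinates follow GENCODE M12 on mm10. The submitters' processing notes also list cutadapt 1.18, HISAT2 2.1.0, Bowtie2 2.2.5, SAMtools 1.9 and mm9. RNA-seq counts cover gene bodies on the strand of the kit, plus 466 precursor rows, and small RNA counts cover exons. Opposite-strand RNA-seq counts were 8.81 to 10.68% of those on the kit's strand and were not tested. Among the exceptions are Gm42418 and the untested gene Gm21284, with more fragments on the opposite strand. Biotypes came from GENCODE M21, which held 49326 of the 49585 gene identifiers, and the 259 others had a summed heterozygous count of at most 152.

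The 50 genes and all lists were chosen with earlier results of these data known. Low counts were filtered, libraries were scaled by TMM, and each assay was fitted over all its genes with edgeR 4.0.16 quasi-likelihood tests (R 4.3.3), with Benjamini-Hochberg adjusted p under 0.05 as the threshold. The 9 RNA-seq libraries entered 1 fit. Counts at an unadjusted p under 0.05 were made without the share over all genes, and nothing is read from them. DESeq2 1.42.0, other scalings and filters, and omission of each library were alternatives. The steps were tested on simulated data with 200 changed genes. Genes named were the first 10 by count, the ranks beside the threshold, up to 8 called per RNA-seq comparison, up to 15 on precursors, the 6 largest small RNA differences, those over short RNA genes and the 6 highest in RNA-seq per length. Genes beyond these were named after their values were seen. The lists held piRNA pathway genes and markers of pachytene spermatocytes, round and elongating spermatids, spermatogonia, Sertoli, Leydig, peritubular myoid, macrophage and endothelial cells, and epididymis. Small RNA totals were 939641 to 1861402 counts. In simulated small RNA data 17% of 2-fold and 79% of 4-fold changes were found.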

Additional observations from a re-analysis of the deposited data

How the results depend on the processing

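Of 158 alternative values for counts and shares, 127 stayed within 1.5 times the reported value or the spread between libraries and 31 did not. Of 618 for single genes and precursor rows, 542 kept their side of the threshold, 65 lost a call, 11 gained one and 0 reversed. A change of sign counted as reversed only if the difference passed the threshold in at least 1 of the 2 fits compared. Some differences that passed in neither changed sign, as in 1700008K24Rik and Gm13821 without heterozygous libraries 2 and 3. Leaving out genes over short RNA genes, which removes Gm21269, lowered the heterozygous share of the 50 genes to 46.033%. For the small RNA comparison, 3 of the 50 genes were called with no filter on low counts, among 43 calls in all, and 0 to 20 on omitting 1 library. The 20, without heterozygous library 1, stood among 617 calls in all. Shares over all genes are not given for these settings, so nothing is read from these counts. With the replicate block 0 were called, and 6 had an unadjusted p under 0.05. Libraries of the same number had correlations of -0.152, 0.002 and -0.084, so the numbers were not taken to pair them. In RNA-seq, omitting 1 library gave 1 to 6 of the 15 genes in homozygotes and 2 to 7 in heterozygotes, compared with wild type. For the precursor rows these omissions gave 1 to 4 in both, and for the piRNA pathway genes 1 to 9 and 2 to 6. Calls over all features then ran from 1805 to 4737 in homozygotes and from 2432 to 4720 in heterozygotes. Fitting only the 2 groups compared gave 5 genes, 2 precursor rows and 3 pathway genes in heterozygotes, among 3829 calls in all. Pathway genes numbered 10 in heterozygotes with DESeq2, 9 with no scaling, and 4 in homozygotes with no filter. Calls over all features in these settings were 5276, 4750 and 4622. With no scaling the median of all features in heterozygotes moved from -0.002 to 0.1 on the log2 scale. The cause of these changes was not tested.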
